A study of Homo sapiens with 6 samples.

Results

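Genes of the mitochondrial ribosome, the respiratory chain, the protein import machinery and the mitochondrial carriers were examined in HT-29 cells with and without depletion of OGT. The genes were chosen by name alone: a protein coding gene of the deposited table was a member if its symbol began with 1 of 20 prefixes, which were MT-, MRPL, MRPS, NDUF, COX, COA, SDH, SDHAF, SUCL, OGDH, IDH, UQCR, ATP5, TIMM, TOMM, SLC25A, CHCHD, TFAM, TFB and POLRMT (COX, COA, IDH, TFB and the MRP prefixes only with a digit after them, SDH also with a subunit letter). This gave 49 of the 5681 genes in the table, and 49 of the 4129 that are protein coding. HT-29 is an established human colorectal cancer cell line. RNA was sequenced from cells expressing a Scramble hairpin (genotype WT in the labels, n = 3 libraries) or a hairpin against OGT (shOGT, genotype OGT knock down in the labels, n = 3 libraries). OGT encodes the enzyme that attaches O-GlcNAc, a single sugar, to nuclear, cytosolic and mitochondrial proteins. The study compared these libraries to find genes through which OGT acts on the TCA cycle. Both groups carried a hairpin, no library without one was analysed here, and the source does not name which of its OGT hairpins was sequenced. All libraries come from this 1 cell line, and the labels do not say whether they came from separate cultures, so the p-values measure only the spread between these libraries.

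The respiratory chain sits in the inner mitochondrial membrane and passes electrons from NADH and succinate to oxygen, and ATP synthase uses the proton gradient that results. A few subunits are encoded by mitochondrial DNA and made on the mitochondrial ribosome. The remaining subunits, and every protein of that ribosome, are encoded in the nucleus and imported through the TOM complex of the outer membrane and the TIM complexes of the inner membrane. Carriers of the SLC25 family move nucleotides, amino acids, cofactors and metal ions across the inner membrane. The TCA cycle feeds the chain, and succinate dehydrogenase belongs to both.

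The deposited table held only genes that had changed in the authors' own comparison: 0 of them lay outside a 2-fold change and an adjusted p under 0.05 in the deposited columns. A gene is therefore in the table because it changed, and members of these families that are not in it were not analysed here. The tests below use the same libraries that decided this, so their adjusted p-values are no separate evidence that a gene changed. The values are normalized counts, that is, read counts divided by 1 factor per library, without division by gene length. Summed over the table, a Scramble library held 4145921 to 4504303 reads and an shOGT library 3302558 to 3471647. OGT was at 10962 ± 1155 normalized counts (SD, n = 3) in Scramble and 548 ± 69.1 in shOGT, which checks the labels. Scramble replicate 1 and shOGT replicate 4 stood apart from the other libraries of their groups. In a chi-square test of recovered reads over genes, the pairs that included them gave a chi-square per degree of freedom of 8.29 and 8.57 (Scramble) and 8.52 and 9.82 (shOGT), against 2.48 and 4.32 for the remaining pairs. Results are given with these libraries, and values without them stand beside the genes whose call changed.

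Sequences are shown for 7 members. For 6 nuclear members, the 250 bases before the start site of RefSeq (GRCh38.p14) are given 5′ to 3′. They include TOMM40 with the largest fall among the members and MRPS6 with a large rise. The paralogs TIMM10 and TIMM10B, which moved in opposite directions, are also shown. Gene positions elsewhere in the text are those of GENCODE 29, and its gene starts can differ from RefSeq. The stretches of TOMM40 and MRPS6 lie wholly inside the GENCODE genes, which start at 44890569 and 34073224. Those of ATP5MC1, TIMM10 and TIMM10B lie partly inside. Capitals mark matches to motifs of factors known from promoters of mitochondrial genes: CCAAT (NF-Y) or its reverse complement ATTGG, and CCGGAAG (ETS family) or its reverse complement CTTCCGG. TOMM40 (chr19:44891004-44891253, plus strand), ATP5MC1 (chr17:48892537-48892786, plus strand) and SLC25A42 (chr19:19063744-19063993, plus strand) were lower in shOGT. TIMM10 (chr11:57530755-57531004, minus strand) was lower, and TIMM10B (chr11:6481251-6481500, plus strand) and MRPS6 (chr21:34073328-34073577, plus strand) were higher. The stretches shown are examples and do not represent all members: TOMM40, ATP5MC1 and SLC25A42 each hold several CCAAT matches. In the promoter search below, CCAAT was in 15 of 33 members that fell (45.45%) and 3 of 9 that rose. Among the table's protein coding genes, 45.41% of those that fell and 31.21% of those that rose had it. The MT-ATP8 gene is shown from GENCODE 29 (GRCh38), since it overlaps another gene of the same complex. Its capitals mark the 46 bases, 8527 to 8572 of mitochondrial DNA, that also belong to MT-ATP6.
TOMM40: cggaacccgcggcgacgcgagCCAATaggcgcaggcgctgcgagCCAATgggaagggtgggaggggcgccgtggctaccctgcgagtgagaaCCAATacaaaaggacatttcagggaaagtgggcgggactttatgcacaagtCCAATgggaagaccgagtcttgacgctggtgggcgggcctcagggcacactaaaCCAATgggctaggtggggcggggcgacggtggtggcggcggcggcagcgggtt
ATP5MC1: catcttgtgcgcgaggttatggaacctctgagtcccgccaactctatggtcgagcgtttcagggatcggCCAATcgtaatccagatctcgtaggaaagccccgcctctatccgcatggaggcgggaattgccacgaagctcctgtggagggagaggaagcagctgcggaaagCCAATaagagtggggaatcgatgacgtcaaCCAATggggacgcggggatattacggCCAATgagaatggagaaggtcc
SLC25A42: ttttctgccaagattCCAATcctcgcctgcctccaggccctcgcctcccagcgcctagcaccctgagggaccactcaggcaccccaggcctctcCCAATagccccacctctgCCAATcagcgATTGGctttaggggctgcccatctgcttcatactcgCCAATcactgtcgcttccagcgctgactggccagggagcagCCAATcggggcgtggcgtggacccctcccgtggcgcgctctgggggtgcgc
TIMM10: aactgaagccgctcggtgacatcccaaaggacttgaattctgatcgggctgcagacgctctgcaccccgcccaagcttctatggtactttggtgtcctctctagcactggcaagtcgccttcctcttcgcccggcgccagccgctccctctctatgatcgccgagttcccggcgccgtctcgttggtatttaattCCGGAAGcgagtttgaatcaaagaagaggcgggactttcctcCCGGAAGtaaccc
TIMM10B: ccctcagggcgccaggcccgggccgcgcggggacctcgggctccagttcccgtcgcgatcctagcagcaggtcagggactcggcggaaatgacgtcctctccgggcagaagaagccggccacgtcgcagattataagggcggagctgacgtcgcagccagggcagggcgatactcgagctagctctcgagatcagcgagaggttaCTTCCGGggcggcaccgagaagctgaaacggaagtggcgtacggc
MRPS6: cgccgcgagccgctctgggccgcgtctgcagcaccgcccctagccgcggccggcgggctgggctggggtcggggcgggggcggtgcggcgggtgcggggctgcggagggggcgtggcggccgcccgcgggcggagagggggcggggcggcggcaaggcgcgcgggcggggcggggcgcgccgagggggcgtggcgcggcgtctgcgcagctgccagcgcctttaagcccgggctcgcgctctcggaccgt
MT-ATP8: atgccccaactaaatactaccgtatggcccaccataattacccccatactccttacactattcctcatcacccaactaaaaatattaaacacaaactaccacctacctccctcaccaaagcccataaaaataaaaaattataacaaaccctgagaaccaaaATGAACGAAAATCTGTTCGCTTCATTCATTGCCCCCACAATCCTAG

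Most of the listed mitochondrial genes were lower in shOGT. Of the 49 members, 38 fell and 11 rose (limma on log2(normalized count + 1), absolute log2 fold change over 1 and Benjamini-Hochberg adjusted p under 0.05, which is what is meant below by fell and rose). Over the 5671 genes tested, 47.2% were called lower and 52.2% higher, so nearly every gene of this table was called in 1 direction or the other. Among the 4127 protein coding genes tested, 57.1% were lower and 42.3% higher, and among the members 77.6% were lower and 22.4% higher. The difference between these shares was not tested. The median log2 fold change was −1.21 over the members, −1.11 over the protein coding genes and 1.05 over all genes tested. The members that fell kept 6.05% to 49.8% of their Scramble level with a median of 38.3%, against a median of 34.2% over all genes that fell. Of the members that rose, the 10 with reads in both groups rose 2.00-fold to 4.55-fold. The groups did not overlap in any of the 49 members, as in 99.5% of all genes tested. In a bulk sample, less RNA per cell and fewer cells that make it cannot be told apart.

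**Figure D1:**
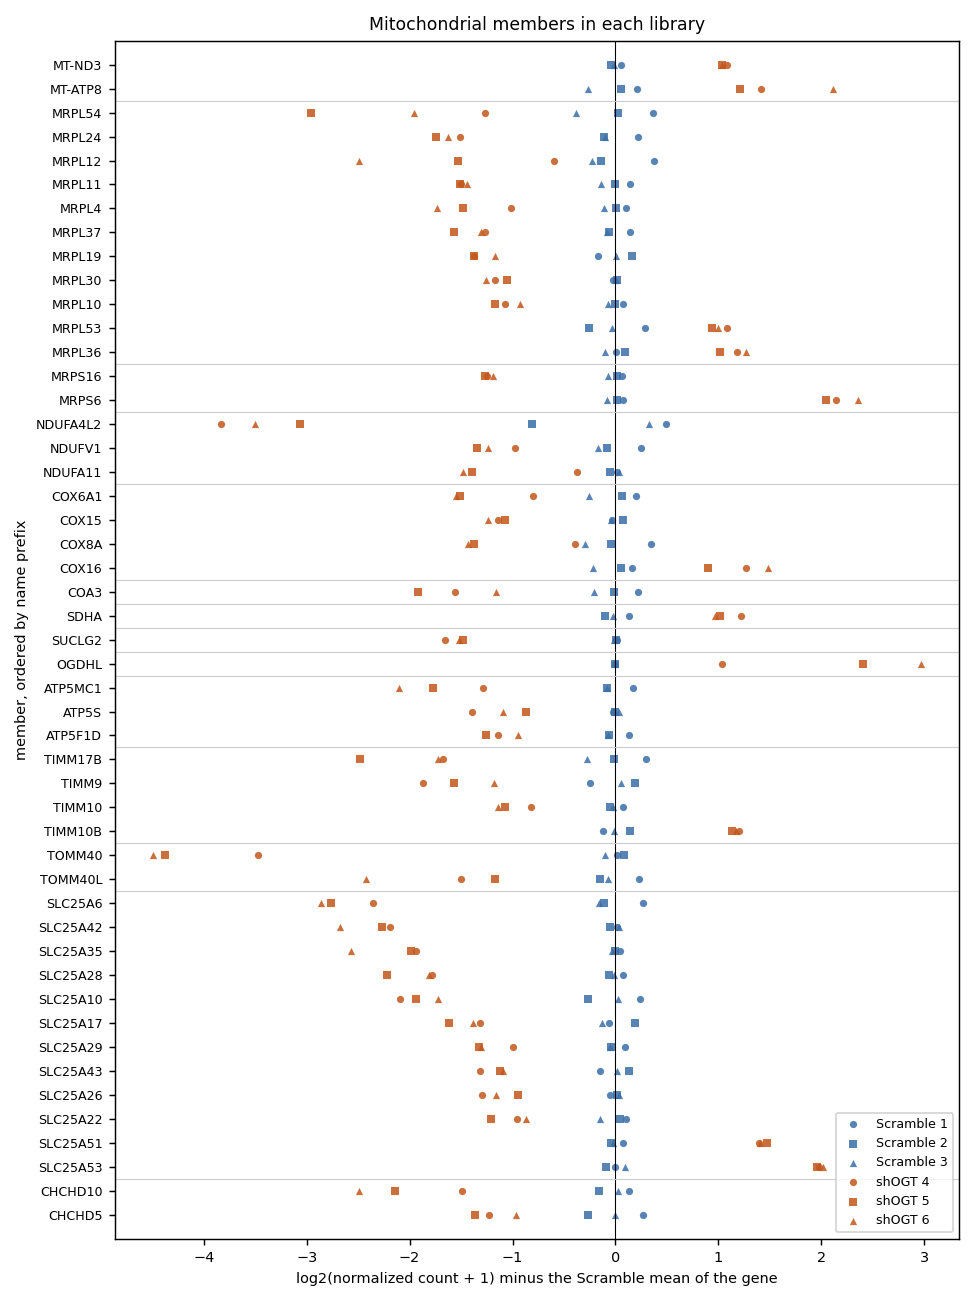
Each row is 1 of the 49 members and each point 1 library, plotted as log2(normalized count + 1) minus the Scramble mean of that gene; lines separate the name prefixes. The shOGT points lie left of the Scramble points in 38 rows and right of them in 11, and TOMM40 and NDUFA4L2 lie farthest to the left.

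Of these gene families as a whole, a minority was in the table. GENCODE 29 lists 305 protein coding genes with these prefixes, of which 49, or 16.1%, were present, against 4129 of 19951, or 20.7%, of all protein coding genes. SLC25A carriers (12 of 48), MRPL proteins of the large ribosomal subunit (11 of 49) and TIMM (4 of 16) had about as large a share as the average gene, whereas the NDUF prefix (3 of 48) and MRPS proteins of the small ribosomal subunit (2 of 29) had 6.25% and 6.90%. No UQCR subunit of complex III, no IDH, and none of TFAM, TFB and POLRMT, the transcription factors and polymerase of mitochondrial DNA, was in the table. These shares count genes that HT-29 cells may not express, and were not tested.

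**Figure D2:**
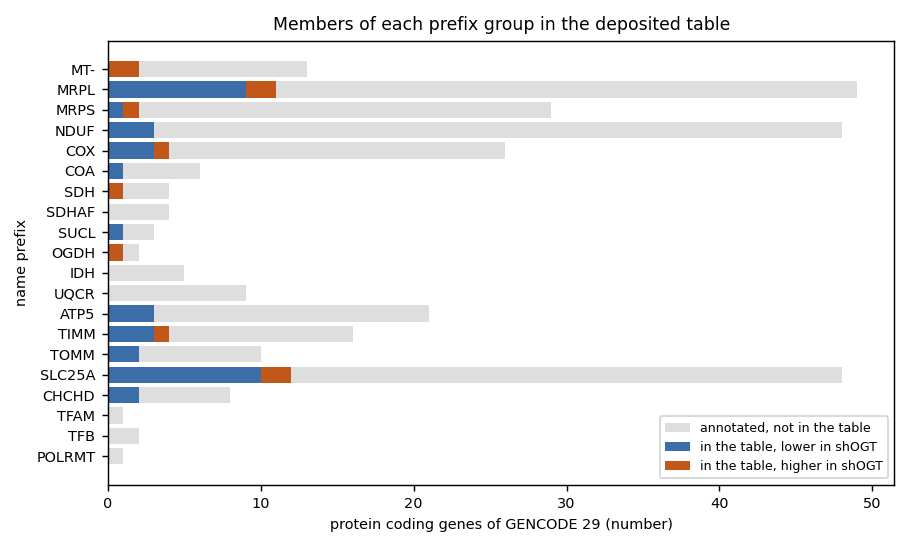
Bars give the number of protein coding genes of GENCODE 29 with each name prefix, split into those absent from the table (grey), lower in shOGT (blue) and higher in shOGT (orange). The blue part exceeds the orange part for MRPL (9 and 2), SLC25A (10 and 2) and TIMM (3 and 1), and the 2 MT- members were both higher.

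Mitochondrial DNA contributed 2 of its 13 protein coding genes, and both rose. MT-ND3 (ENSG00000198840, mitochondrial DNA from 10059 to 10404), a core subunit of complex I, had 3927, 3657 and 3752 normalized counts in Scramble against 7983, 7729 and 7755 in shOGT. The libraries of each group lay close together, and the groups were far apart. The rise was 2.07-fold, with a log2 fold change of 1.05 (standard error 0.08, limma adjusted p = 1.42e-08). MT-ATP8 (ENSG00000228253, mitochondrial DNA from 8366 to 8572), a subunit of ATP synthase, had 235, 211 and 168 in Scramble and 542, 469 and 882 in shOGT. All shOGT libraries were above all Scramble libraries, and replicate 6 was well above the other shOGT libraries. Its log2 fold change was 1.58 (standard error 0.20, limma adjusted p = 3.30e-06), and 22.2% of its bases, shown above in capitals, are shared with MT-ATP6. Beside these, 6 tRNA genes of mitochondrial DNA were in the table, of which 5 fell and MT-TE rose. Their log2 fold changes ran from −2.10 to 2.43, and both ends were genes of low level. MT-TL2 had 18.3 ± 4.54 in Scramble and 4.35 ± 3.84 in shOGT, and MT-TE 14.1 ± 3.45 and 79.5 ± 12.3 (SD, n = 3). RNA was captured with oligo(dT), and how far these counts reflect mature tRNA was not tested. Of the tRNA genes that fell, MT-TH became −0.56 (limma adjusted p = 0.0852), MT-TC −0.97 and MT-TR −0.87 without shOGT replicate 6. MT-TR became −0.91 and MT-TH −1.16 (limma adjusted p = 0.0603) without Scramble replicate 1. The 11 other protein coding genes of mitochondrial DNA, MT-ATP6 among them, were not in the table and were not analysed here.

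Most of the large-subunit genes of the mitochondrial ribosome in the table fell. Of 11 MRPL members 9 fell to between 25.7% and 48.0% of the Scramble level, and MRPL36 and MRPL53 rose. The highest of them per kilobase in Scramble, MRPL37 (ENSG00000116221, chromosome 1 from 54184041 to 54225464), had 2222, 1937 and 1912 normalized counts in Scramble and 839, 679 and 815 in shOGT. Each shOGT library held less than 1 in 2 of the count of any Scramble library, with a log2 fold change of −1.38 (standard error 0.10, limma adjusted p = 1.59e-08). MRPL54 gave 192, 150.5 and 113 in Scramble and 61.0, 18.2 and 37.6 in shOGT. It had the largest fall of the group, with a log2 fold change of −2.06 (standard error 0.35, limma adjusted p = 7.11e-05), and the widest spread after MRPL12. MRPL24 gave 458, 362 and 364 in Scramble and 137, 117 and 126 in shOGT, with a log2 fold change of −1.63 (standard error 0.14). These 3 proteins are structural parts of the large subunit. MRPL12, which in addition binds the mitochondrial RNA polymerase, gave 404, 282 and 266 in Scramble and 206, 107 and 54.6 in shOGT. Its shOGT libraries differed widely among themselves, with replicate 4 the highest, and the log2 fold change was −1.54 (standard error 0.34, limma adjusted p = 5.98e-04). With an ordinary linear model per gene its adjusted p was 0.0577. In addition, 68.2% of its exon bases are shared with AC139530.2, a readthrough gene that also covers 46.6% of the exon bases of SLC25A10, 4.71 kb away. The other 5 MRPL members that fell, MRPL11, MRPL4, MRPL19, MRPL30 and MRPL10, had log2 fold changes from −1.49 to −1.06, and 19.5% of the exon bases of MRPL30 belong also to AC079447.1.

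MRPL36, the member of the large subunit that rose most, had 369, 392 and 343 normalized counts in Scramble against 836, 744 and 887 in shOGT. The rise was 2.23-fold, with a log2 fold change of 1.16 (standard error 0.11, limma adjusted p = 1.40e-07). MRPL53 gave 92.2, 63.1 and 73.6 in Scramble and 161, 146 and 151 in shOGT. It stood at the threshold with a log2 fold change of 1.01 (standard error 0.19), which became 0.88, 0.99 and 0.97 without Scramble replicate 2, Scramble replicate 3 and shOGT replicate 4. CCDC142, which covers 45.2% of its exon bases on the same strand, also rose, with a log2 fold change of 1.27.

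The small subunit gave 2 members. MRPS6 (ENSG00000243927, chromosome 21 from 34073224 to 34143034) had 1063, 1022 and 953 normalized counts in Scramble against 4467, 4177 and 5196 in shOGT. The lowest shOGT library was 3.93 times the highest Scramble library. The log2 fold change was 2.18 (standard error 0.10, limma adjusted p = 1.19e-10), a 4.55-fold rise, the largest among the members with reads in both groups. SLC5A3, an inositol transporter gene that shares 273 exon bases (6.35%) with MRPS6 on the same strand, rose as well, from 4013 ± 293 to 14122 ± 856 (SD, n = 3). MRPS16 (chromosome 10 from 73248843 to 73252693) moved the other way, with 1948, 1887 and 1772 in Scramble and 787, 777 and 816 in shOGT. Its log2 fold change was −1.23 (standard error 0.09, limma adjusted p = 7.66e-09). The 2 small-subunit members in the table thus moved in opposite directions.

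The NDUF prefix, which covers complex I subunits, their assembly factors and related proteins, gave 3 members, and all fell. NDUFV1 (ENSG00000167792, chromosome 11 from 67605653 to 67612554), the subunit that binds NADH and takes up its electrons, had 2381, 1899.6 and 1785 normalized counts in Scramble and 1018, 790.4 and 849 in shOGT. Replicates 1 and 4, the libraries that stood apart, were the highest of their groups, and the groups remained separate. The log2 fold change was −1.19 (standard error 0.12, limma adjusted p = 3.63e-07). NDUFA4L2, a paralog of a respiratory chain subunit that is known as a hypoxia-induced gene, had 124, 49.6 and 110.4 in Scramble and 5.26, 9.64 and 6.83 in shOGT. That was 7.65% of its Scramble level, with a log2 fold change of −3.47 (standard error 0.39, limma adjusted p = 1.09e-06). NDUFA11, an accessory subunit of the membrane arm, had 98.4, 93.7 and 99.4 in Scramble and 74.7, 36.4 and 34.1 in shOGT. Replicate 4 kept about 3 in 4 of the Scramble level and the other shOGT libraries about 1 in 3. The log2 fold change of −1.08 (standard error 0.29, limma adjusted p = 0.0022) became −0.93 and −0.88 without shOGT replicates 5 and 6, and −1.43 without both libraries that stood apart. MT-ND3, of the same complex but encoded in mitochondrial DNA, had risen. The table held only 2 of the 13 protein coding genes of mitochondrial DNA.

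Complex II was represented by SDHA alone (ENSG00000073578, chromosome 5 from 218241 to 256700), its flavoprotein subunit and an enzyme of the TCA cycle. SDHA had 2709.6, 2301 and 2428 normalized counts in Scramble against 5750.1, 4995 and 4843 in shOGT. The rise was 2.10-fold, with a log2 fold change of 1.07 (standard error 0.09, limma adjusted p = 7.91e-08), which became 0.99 without shOGT replicate 4. Of its stretches of 75 bases, 5.71% also occur in other genes, among them the pseudogenes SDHAP1 and SDHAP3. Next to SDHA in the cycle, SUCLG2 encodes the subunit of succinyl-CoA ligase that uses GDP. It had 696, 692 and 685 in Scramble and 218, 247 and 240.2 in shOGT, so that every shOGT library held close to 1 in 3 of the Scramble level. Its log2 fold change was −1.55 (standard error 0.11, limma adjusted p = 7.56e-09), and 11.7% of its 75-base stretches also occur in the pseudogene SUCLG2P2. OGDHL, a paralog of 2-oxoglutarate dehydrogenase, had no read in any Scramble library and 1.05, 4.28 and 6.83 in shOGT. Against a floor of 3 reads per Scramble library its mean was at least 1.497-fold higher, and its level was low in all libraries.

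Complex IV contributed subunits and assembly factors, and 4 of its 5 members fell. COX8A (chromosome 11 from 63974607 to 63976543), a small subunit, had 1163, 889 and 747 normalized counts in Scramble against 697, 352 and 339 in shOGT. The lowest Scramble and the highest shOGT library were only 1.07-fold apart. Its log2 fold change of −1.07 (standard error 0.23, limma adjusted p = 4.27e-04) became −0.90, −0.91 and −0.89 without Scramble replicate 1, shOGT replicate 5 and shOGT replicate 6. An ordinary linear model gave COX8A an adjusted p of 0.0512, and 34.5% of its exon bases are shared with AP000721.1. COX6A1, another small subunit, had 836, 761 and 608 in Scramble and 418, 255 and 248 in shOGT, with a log2 fold change of −1.29 (standard error 0.18, limma adjusted p = 9.97e-06). As in COX8A, replicate 4 was the highest shOGT library. COX15, an enzyme of heme A synthesis, gave tighter groups, with 454, 489 and 452 in Scramble and 211, 221 and 197 in shOGT, and a log2 fold change of −1.15 (standard error 0.12), and shares 25.6% of its exon bases with AL133353.2. COA3, an assembly factor, had 292, 249 and 216 in Scramble and 84.2, 65.3 and 112 in shOGT. It fell most of these genes, with a log2 fold change of −1.55 (standard error 0.20, limma adjusted p = 5.14e-06), and 42.5% of its exon bases lie opposite exons of WNK4. COX16, an assembly factor of low level, rose from 17.4 ± 2.45 to 42.1 ± 8.48 (SD, n = 3), with a log2 fold change of 1.22 (standard error 0.32), and 36.0% of its exon bases belong also to the readthrough gene SYNJ2BP-COX16.

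The ATP5 prefix, of ATP synthase subunits and a related protein, gave 3 members, and all fell, while MT-ATP8 of ATP synthase had risen. MT-ATP6, which overlaps MT-ATP8, was not in the table. ATP5MC1 (ENSG00000159199, chromosome 17 from 48892765 to 48895871), a gene for the subunit that forms the rotating ring, had 427, 358 and 359 normalized counts in Scramble against 155, 110.3 and 87.6 in shOGT. The log2 fold change was −1.72 (standard error 0.19, limma adjusted p = 7.13e-07). ATP5F1D, the delta subunit, had 1517, 1327 and 1320.5 in Scramble and 629, 577 and 717 in shOGT, with a log2 fold change of −1.12 (standard error 0.10). ATP5S gave 232, 236 and 243 in Scramble against 89.5, 129.6 and 110.4 in shOGT. The groups of ATP5S did not overlap, but its log2 fold change of −1.12 (standard error 0.17, limma adjusted p = 1.88e-05) became −0.98 without shOGT replicate 4 and −0.995 without both libraries that stood apart.

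**Figure D3:**
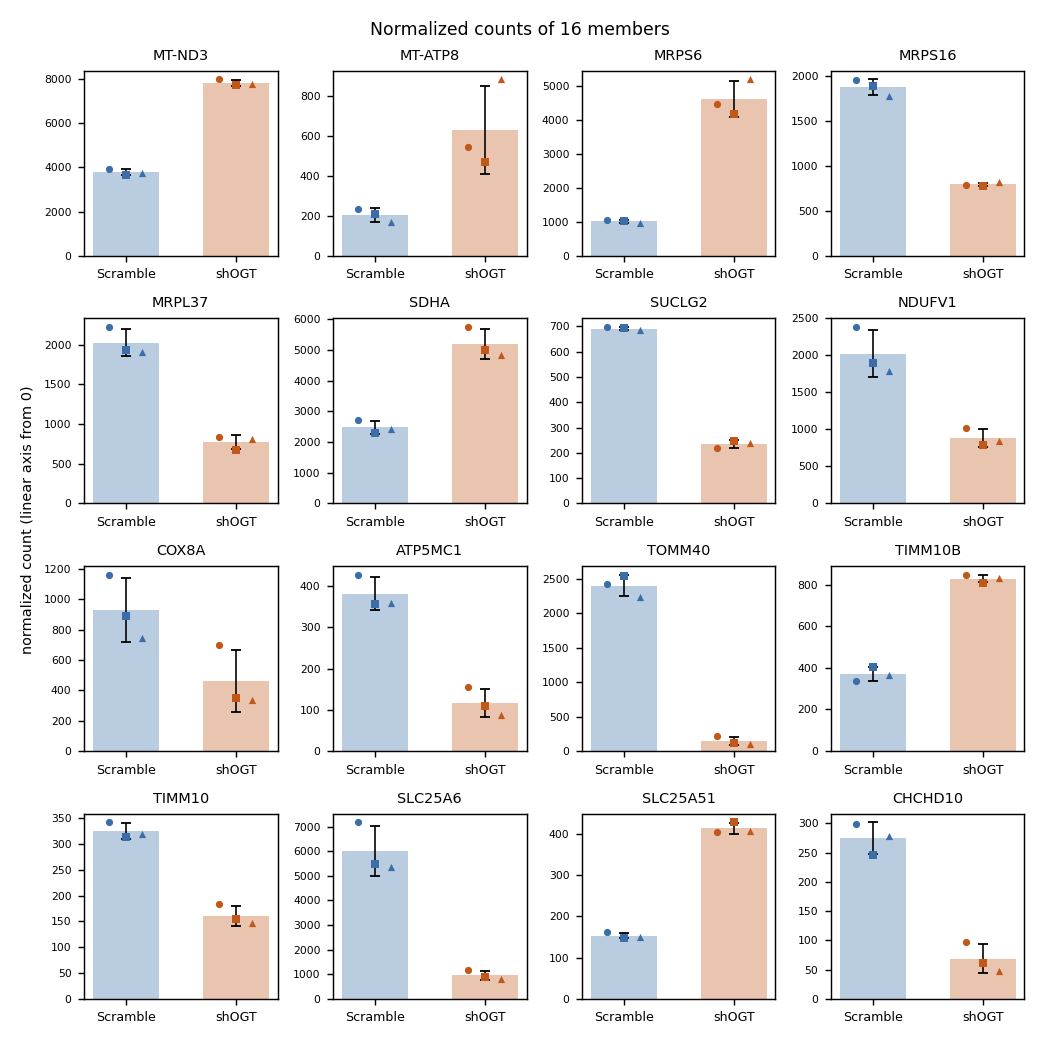
Normalized counts of 16 members on linear axes that start at 0; bars are group means, error bars the SD of 3 libraries, and circles, squares and triangles the libraries in label order. MT-ND3, MT-ATP8, MRPS6, SDHA, TIMM10B and SLC25A51 are higher in shOGT and the remaining 10 are lower, with the smallest gap between groups in COX8A.

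Protein import held the largest fall of all members. TOMM40 (ENSG00000130204, chromosome 19 from 44890569 to 44903689) encodes the channel of the TOM complex, through which nearly all imported proteins enter. It had 2426, 2550.2 and 2239 normalized counts in Scramble against 216, 115 and 106 in shOGT. The lowest Scramble library was 10.4 times the highest shOGT library. TOMM40 retained 6.05%, with a log2 fold change of −4.11 (standard error 0.20, limma adjusted p = 2.71e-10). The targeted gene OGT had a log2 fold change of −4.32. Of the 75-base stretches of TOMM40, 5.78% also occur in other genes. Its paralog TOMM40L had 162, 124 and 132 in Scramble and 48.4, 61.1 and 25.0 in shOGT, with a log2 fold change of −1.70 (standard error 0.29, limma adjusted p = 6.88e-05), and 20.1% of its exon bases lie opposite exons of NR1I3.

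Among the TIM genes, 3 fell and TIMM10B rose. TIMM17B, a part of the TIM23 channel of the inner membrane, had 887, 715 and 595 normalized counts in Scramble and 225, 129 and 217 in shOGT, with a log2 fold change of −1.96 (standard error 0.20, limma adjusted p = 3.09e-07). TIMM9 and TIMM10 form the chaperone that carries membrane proteins across the intermembrane space, and both fell. TIMM9 had 276, 372 and 339.6 in Scramble and 88.4, 109 and 143 in shOGT, with a log2 fold change of −1.54 (standard error 0.19). TIMM10 had 342, 314 and 320.2 in Scramble and 183, 154 and 147 in shOGT. It lay just past the threshold, and its log2 fold change of −1.01 (standard error 0.14, limma adjusted p = 7.33e-06) became −0.98, −0.98 and −0.95 without Scramble replicate 1, shOGT replicate 5 and shOGT replicate 6. TIMM10B, a related small TIM protein that docks at the TIM22 complex for carrier insertion, had 337, 405 and 364 in Scramble against 846, 809.7 and 831 in shOGT. The lowest shOGT library was 2.00 times the highest Scramble library, and the log2 fold change was 1.17 (standard error 0.10, limma adjusted p = 8.92e-08). Of the exon bases of TIMM10B, 13.55% are shared on the same strand with AC084337.2. Per kilobase of exon, TIMM10 was above its paralog TIMM10B in Scramble, at 419 and 121 normalized counts, and below it in shOGT, at 208 and 273.

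The carriers of the SLC25A family formed the largest group, and 10 of 12 fell. SLC25A6 (ENSG00000169100, chromosome X from 1386152 to 1392724), an exchanger of ADP and ATP, was the nuclear member with the highest level per kilobase in Scramble. It had 7171, 5497 and 5340.0 normalized counts in Scramble and 1163, 872 and 819.5 in shOGT. SLC25A6 kept 15.9% of that level, with a log2 fold change of −2.66 (standard error 0.14, limma adjusted p = 4.04e-10). Carriers of a cofactor and of iron fell as well. SLC25A42, which imports coenzyme A, had 71.8, 68.5 and 72.7 in Scramble and 14.7, 13.9 and 10.2 in shOGT, with a log2 fold change of −2.38 (standard error 0.30). SLC25A28, which imports iron, had 292, 267 and 276 in Scramble and 80.0, 58.9 and 78.5 in shOGT, with a log2 fold change of −1.94 (standard error 0.17). In both genes every shOGT library lay far below every Scramble library. SLC25A10, which exchanges dicarboxylates such as malate and succinate for phosphate, had 274, 193 and 236 in Scramble and 53.7, 60.0 and 69.4 in shOGT, with a log2 fold change of −1.92 (standard error 0.19). SLC25A35, whose substrate is not established, had 81.6, 79.3 and 77.3 in Scramble and 19.999, 19.3 and 12.5 in shOGT. Its log2 fold change was −2.17 (standard error 0.29), and RANGRF, which covers 33.2% of its exon bases on the opposite strand, fell too, with a log2 fold change of −2.66.

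Other carriers that fell were SLC25A17 of peroxisomes, SLC25A29 for basic amino acids, SLC25A43, SLC25A26 for S-adenosylmethionine and SLC25A22 for glutamate. They kept 36.6% to 49.5% of their Scramble level. SLC25A22 stood nearest to the threshold, and its log2 fold change of −1.02 became −0.97, −0.99 and −0.92 without Scramble replicate 1, Scramble replicate 2 and shOGT replicate 5, and −0.993 without both libraries that stood apart. Of their exon bases, 15.5% lie opposite LRIG1 in SLC25A26 and 10.9% opposite PANO1 in SLC25A22, and counting was not stated to use strand. Carriers that rose were SLC25A51, which imports NAD, and SLC25A53, a carrier of unknown substrate. SLC25A51 (ENSG00000122696, chromosome 9 from 37879400 to 37904353) had 161, 149 and 151 in Scramble against 405, 428 and 407 in shOGT. The libraries of each group differed little, and the log2 fold change was 1.42 (standard error 0.12, limma adjusted p = 6.62e-08). SLC25A53 had 23.9, 22.5 and 25.8 in Scramble and 97.9, 96.4 and 100.2 in shOGT, a 4.08-fold rise with a log2 fold change of 1.98 (standard error 0.24, limma adjusted p = 2.42e-06).

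CHCHD10 and CHCHD5, small proteins of the intermembrane space, fell. CHCHD10 (chromosome 22 from 23765834 to 23768443), found at the cristae, had 299, 245 and 279 normalized counts in Scramble and 96.8, 61.1 and 47.8 in shOGT, with a log2 fold change of −2.04 (standard error 0.23, limma adjusted p = 8.99e-07). CHCHD5 had 162, 112 and 133 in Scramble and 56.8, 51.4 and 68.3 in shOGT, with a log2 fold change of −1.19 (standard error 0.21, limma adjusted p = 1.11e-04). In both genes the highest shOGT library was below the lowest Scramble library.

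The levels of the members could be ordered after division by exon length, which equalled the merged exons of GENCODE 29 for 49 of 49 members. In Scramble, MT-ND3 was highest at 10921 normalized counts per kilobase, followed by SLC25A6 at 2774, COX8A at 1840 and MT-ATP8 at 989. In shOGT, MT-ND3 stood at 22607, MT-ATP8 at 3049 and SLC25A6 at 440, which moved SLC25A6 from rank 2 to rank 7 of the 49. TOMM40 went from 666 per kilobase and rank 7 to 40.3 and rank 35. The summed normalized counts of the 47 nuclear members were 33025 to 38874 in Scramble and 20925 to 24123 in shOGT. With MT-ND3 and MT-ATP8 the sums were 36945 to 43036 and 29123 to 32647. These sums rest on the deposited scaling and are weighted by abundant genes. Among the nuclear members, the mean of SLC25A6 went from 6003 to 951 and that of TOMM40 from 2405 to 145. Of the 47 nuclear members, 38 fell and 9 rose.

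The count of genes that fell depended on the scaling of the libraries. With factors taken instead as the median ratio over the table's own genes, the median over all genes moved up by 0.71 on the log2 scale. The 11 members that rose were called as before, and 11 of the 38 that fell were still past the threshold. These were TOMM40, NDUFA4L2, SLC25A6, SLC25A42, SLC25A35, SLC25A28, SLC25A10, TIMM17B, MRPL54, CHCHD10 and ATP5MC1, with rescaled log2 fold changes from −3.40 to −1.01. The other 27 were between −0.99 and −0.30, and none of the 49 members changed direction. Of these 27, NDUFA11 and COX8A had limma adjusted p-values of 0.183 and 0.110 after rescaling, and the rest stayed under 0.05. After rescaling the calls were thus 11 higher and 11 lower, against 11 and 38 with the deposited scaling. A table that holds changed genes alone gives no independent base for a scaling.

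**Figure D4:**
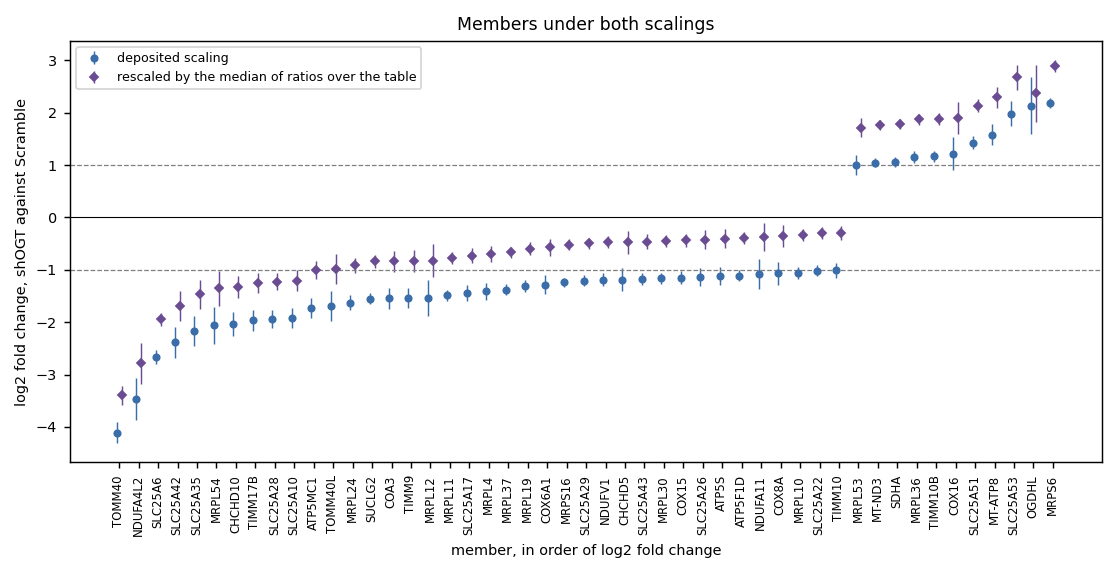
Log2 fold change of shOGT against Scramble with its standard error for each member, with the deposited scaling (blue circles) and after rescaling by the table's median ratios (purple diamonds); dashed lines mark 1 and −1. All diamonds lie above their circles, and 11 lie below the lower dashed line.

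The libraries that stood apart also differed in these genes. Scramble replicate 1 was the highest of its group in 27 of the 38 members that fell (71.1%) and in 8 of the 11 that rose (72.7%), against 56.0% and 33.7% of all genes that fell and rose. Ties were counted for the first library of a group. The 8 therefore include OGDHL, which had no read in any Scramble library, and the shares over all genes include any such ties. In shOGT, replicate 4 was the highest in 20 of the 38 (52.6%), against 47.1% of all genes that fell. Members took 0.968% to 1.08% of the reads of the table in Scramble and 0.783% to 0.908% in shOGT, with the highest share of each group in these libraries. Without both, 36 members fell and 11 rose, and the median log2 fold change was −1.27. Their part in the results beyond these values was not tested.

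Other genes of the same pathways, from 7 lists, fell more often than they rose. Of 276 listed names, 50 were in the table, of which 37 (74%) fell and 13 rose, with limma adjusted p-values of at most 0.00051. The protein coding genes tested gave 57.1% and 42.3%. Of these 50 genes, 41 kept their call with each library left out in turn, and 10 were lower and 13 higher after the rescaling described above. Translation factors outside the MRP families gave 5 that fell and 1 that rose. ERAL1, which helps to assemble the small ribosomal subunit, fell from 836 ± 16.8 to 213 ± 17.2 normalized counts (SD, n = 3, log2 fold change −1.97). MTRF1L, a release factor, rose from 242 ± 14.5 to 520.5 ± 46.3. Of the genes that maintain mitochondrial DNA and RNA, 2 fell and 3 rose. GRSF1, of the mitochondrial RNA granules, fell (log2 fold change −1.29), as did GTPBP3, a tRNA modifier (−1.10). FASTKD5, which processes mitochondrial RNA, rose (1.505), as did TRMT10C, a part of mitochondrial RNase P (1.09). GTPBP3 became −0.9986 and −0.97 without Scramble replicate 1 and shOGT replicate 5, and TRMT10C 0.99 without Scramble replicate 1.

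The list of enzymes of pyruvate metabolism and the TCA cycle outside the member families gave 5 genes that fell and 0 that rose. These were PDK2, PCK2, PDHB, NNT and PDK4. Listed enzymes of the cycle itself, such as CS, FH and MDH2, were not in the table, so the count does not describe them. PDK2, a kinase that inactivates pyruvate dehydrogenase, fell from 304 ± 51.4 to 27.0 ± 12.8 normalized counts (SD, n = 3, log2 fold change −3.52), and PCK2, which makes phosphoenolpyruvate in mitochondria, fell from 2307 ± 181 to 303 ± 29.7 (−2.93). PDHB, a subunit of pyruvate dehydrogenase itself, was also among the 5 (−1.42). Assembly factors and electron carriers gave 10 that fell and 1 that rose. Among them COQ10A, a coenzyme Q binding protein, had a log2 fold change of −2.26, HIGD2A, a factor for complex IV, of −2.01 and LYRM4, of iron-sulfur cluster assembly, of 1.19. Import, folding and proteolysis gave 5 that fell and 3 that rose. STOML2, a membrane scaffold, fell from 2035 ± 77.8 to 404 ± 34.5 (−2.33) and CLPP, a matrix protease, from 716 ± 81.3 to 255.5 ± 18.0 (−1.48). PMPCA, a subunit of the peptidase that removes import signals, rose (1.21), as did PINK1, a kinase that marks damaged mitochondria (1.20).

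Genes of cristae, fusion, fission and ion channels were evenly divided, with 4 that fell and 4 that rose. SFXN5 (−1.92) and IMMT, a scaffold of cristae junctions (−1.51), fell. MCU, the pore of the calcium uniporter, rose from 705 ± 37.4 to 2567 ± 255 normalized counts (SD, n = 3, log2 fold change 1.86), and SFXN1, a serine carrier, rose (1.31). Of the listed regulators of mitochondrial gene expression 6 fell and 1 rose. SP1 (−1.44) and GABPB2, a partner of the ETS factor GABPA (−1.33), fell, whereas PPARGC1A, a coactivator of mitochondrial biogenesis, rose from 88.4 ± 4.94 to 236 ± 59.4 (1.37). ESRRA, MYC, ATF4 and TFEB were the others that fell, with log2 fold changes from −1.29 to −1.05. After the rescaling described above they were between −0.57 and −0.34, with MYC at −0.35. For MYC, the study reported less protein after OGT depletion in HT-29 cells, but no significant decrease of mRNA by quantitative PCR. MYC became −0.97 without shOGT replicate 5 and TFEB −0.86 without shOGT replicate 6.

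Promoters of 300 bases, 250 before and 50 after the start, were found in RefSeq (GRCh38.p14) for 42 members, 33 that fell and 9 that rose, and were searched on both strands. The CCAAT motif of NF-Y, which occurs 5 times in TOMM40 and 6 times in SLC25A42, was present in 45.5% of the members that fell and in 33.3% of those that rose. Among all protein coding genes of the table that fell or rose the shares were 45.4% and 31.2%, so the members hardly differed from other genes of their direction. CCGGAAG, the ETS motif, was in 27.3% of the members that fell and 22.2% of those that rose, against 14.3% of the genes that fell in the table and 14.2% of all 15843 protein coding promoters. It occurs 2 times in TIMM10, which fell, and once in TIMM10B, which rose. The E-box CACGTG was in 7 of 42 (16.7%, all protein coding promoters 8.88%), the NRF1 core GCATGCGC in 3 (7.14% and 4.26%) and the YY1 motif AAGATGGCG in 3 (7.14% and 2.74%). By direction, the E-box was in 3 of 9 members that rose (33.3%) and 4 of 33 that fell (12.1%). The protein coding genes of the table that rose and fell gave 10.3% and 9.18%. The ERR motif TCAAGGTCA and the ATF4 motif TTGCATCA were in none of the 42 and in under 1% of all promoters. MRPS6 was 1 of 11 members with no match to any of these letters. A match is not a binding site, and none of these shares was tested.

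Transcript GC content had a median of 55.7% in members that fell and 46.1% in members that rose, against 54.0% and 46.4% over all genes that fell and rose. Without MT-ND3 and MT-ATP8 the members that rose had a median of 49.8%, and no difference in base composition was tested. Markers of colon epithelium were present in 4 of 12 and summed to 9048 to 10922 normalized counts in Scramble and 18461 to 20450 in shOGT. KRT19 and KRT20 rose, and LGALS4 and VIL1 fell. Of the markers of other cell types, 1 of 10 of fibroblasts was in the table and summed to 0 to 1.80 and 10.5 to 17.1, and 1 of 5 of endothelium, at 42.3 to 51.4 and 129 to 199.99. The 4 of 9 immune markers were almost entirely LYZ, a lysozyme that gut epithelium also makes, and summed to 7985 to 8695 and 15700 to 17452. Without Scramble replicate 2, Scramble replicate 3 and shOGT replicate 4 the log2 fold change of LYZ, 1.01 with all libraries, was 0.99, 0.99 and 0.97. Their part in the results was not tested.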

How the data were processed

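Total RNA of HT-29 cells was sequenced in 6 libraries, 3 Scramble and 3 shOGT, grouped by their labels. Per the labels, mRNA was captured with oligo(dT), second strands were marked with dUTP and adapters carried molecular identifiers. The methods of the study name an Agilent SureSelect strand-specific kit, and whether counting used strand is not given in the sources used here. The submitters' processing notes name cutadapt 1.9, HISAT2 2.0.4, UMI-tools, StringTie 1.3.4d, DESeq2, edgeR and a mouse build, mm8. The gene identifiers are human, and start and end matched GENCODE 29 (GRCh38) for 5681 of 5681 genes.

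The deposited values are a signal, read counts that the authors divided by library factors. In these, 100% of the values in each library were whole multiples of 1 step (tolerance 0.02), so read counts were recovered. The size factors were 1.09 to 1.13 in Scramble and 0.879 to 0.950 in shOGT. Further deposited columns give the authors' own comparison, as a log2 fold change, a p-value and a q-value per gene. They were used for nothing but to see which genes the table keeps. The deposited gene length, an other unit (bases), was used for levels per kilobase. Sums over the table are not the depth of the libraries, so depth limits low genes to an unknown extent.

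The test was that of limma 3.58.1 in R 4.3.3 with an intensity trend, on log2(normalized count + 1), over the 5671 genes that reached 1 in 3 or more libraries, with Benjamini-Hochberg adjustment over all of them. This scale understates the change of low genes. Calls needed an absolute log2 fold change over 1 and an adjusted p under 0.05. Because the genes had been kept for a change in these same libraries, the adjustment does not control the share of false calls. For OGDHL, without a read in Scramble, 3 reads per library were taken as a floor, which covers counting error only. Alternatives were rescaling by the median of ratios, an ordinary linear model, a pseudocount of 0.1, no filter, a mean of at least 5, edgeR 4.0.16 with the deposited scaling or TMM and DESeq2 1.42.0 on recovered reads, and each library left out. Leaving out Scramble replicate 1 and shOGT replicate 4 together was added after the data were seen.

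Values per library are given for every member encoded in mitochondrial DNA, all SDH, SUCL and OGDH members, and in other groups up to 3 rises and 3 falls (5 in SLC25A) with a mean of at least 50 in the higher group, plus the most abundant member. From each pathway list up to 2 genes in each direction were named. A gene that this rule names is not reported here. MRPL11, COX16 and the other members outside this rule, PDHB, NNT, PDK4, ESRRA, MYC, ATF4, TFEB, the marker genes and the overlapping genes were named as counts required or for their overlap. Members and lists were chosen with earlier results of these data known. Lists were not tested as sets. Promoters were matched by symbol, and 7 members had no entry.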

Additional observations from a re-analysis of the deposited data

How the results depend on the processing

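With libraries rescaled by the table's median ratios, members called lower numbered 11 instead of 38, all genes called lower numbered 1090 instead of 2677, and the median log2 fold change was −0.49 over the members instead of −1.21 and 1.76 over all genes instead of 1.05. That shift follows from the rescaling itself, which raised the median of all genes by 0.71. With each library left out in turn, members called lower numbered 34 to 38, members called higher 9 to 11, and the median over the members ran from −1.32 (without shOGT replicate 4) to −1.19; 42 of the 49 members kept their call in each of these 6 fits, and the 7 that did not were MRPL53, SDHA, ATP5S, NDUFA11, COX8A, TIMM10 and SLC25A22, all of them at an adjusted p under 0.05. Without Scramble replicate 1 and shOGT replicate 4 together, 36 members were lower and 11 higher. With edgeR, MRPL53 was at 0.999 (deposited scaling) and 0.996 (TMM), and NDUFA11 at −0.997 (deposited scaling); with a mean value of at least 5, OGDHL was not tested; with an ordinary linear model MRPL12 and COX8A missed the adjusted p. DESeq2, a pseudocount of 0.1 and no filter gave the same calls for 49 of 49 members. No member reversed its direction under any of these settings. No paired analysis was possible because the labels number the libraries 1 to 6 and the groups share no replicate number. Since the table was restricted by the authors to changed genes, none of these settings bears on genes outside it.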
